A study of Homo sapiens with 4 samples.

Results

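NRF2 (gene symbol NFE2L2) is the transcription factor behind the antioxidant and detoxification response, and 39 genes of that response were followed here in PC3 prostate cancer cells treated with the NEDDylation inhibitor MLN4924, with or without depletion of p14ARF. The genes were taken by name from a list that was chosen with earlier results of these data known. It holds NFE2L2 itself, its inhibitor KEAP1, its DNA-binding partner MAFG and 36 genes known as NRF2 targets or as enzymes of the same pathways. All 39 were among the 43622 genes of the expression table and among the 19932 genes that were tested. Tested genes had a mean of at least 0.1 TPM (a length-normalized abundance that sums to a constant in each library) over all 12 libraries, whichever conditions were compared. Only GPX2 had a mean under 0.1 TPM in control cells, so it passed that filter through its level in other conditions.

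In unstressed cells KEAP1 holds NRF2 on the cullin CUL3, and this ubiquitin ligase marks NRF2 for the proteasome. Cullin ligases need the ubiquitin-like protein NEDD8 attached to the cullin to work, and MLN4924 blocks the enzyme that activates NEDD8. When it escapes degradation, NRF2 pairs with a small MAF protein on antioxidant response elements and raises the transcription of genes that make glutathione and thioredoxin, supply NADPH, handle heme and iron, reduce quinones and carbonyls, and export conjugates. NRF2 activity is thus set mainly at the protein level, which RNA does not show.

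PC3 is an established prostate cancer line. RNA-seq covered 4 conditions of 3 libraries each, all after 3 days: PC3 cells in vehicle (Ctrl), PC3 cells in 1 µM MLN4924 (MLN), PC3-shp14ARF cells in vehicle (shARF), and PC3-shp14ARF cells in 1 µM MLN4924 (Both). The vehicle was DMSO. PC3-shp14ARF cells stably carry a short hairpin RNA against p14ARF, and no control hairpin was named for the PC3 cells, so hairpin expression and p14ARF depletion cannot be told apart. The series design text speaks of a knockout and of a dose in mM, whereas the sample labels give Sh ARF and µM, which are used here. Each condition is 1 labelled sample with 3 replicate columns and nothing says that these came from separate cultures, so p-values measure the spread between these libraries, which may be technical. TPM values carry no read depth, so the counting error behind each value is unknown.

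CDKN2A, the locus that encodes p14ARF together with p16INK4a, averaged 183 ± 6.49 TPM in Ctrl, 118 ± 16.4 TPM in MLN, 59.3 ± 1.47 TPM in shARF and 47.5 ± 6.4 TPM in Both (SD, n = 3), and was lower in shARF than in Ctrl by a log2 difference of -1.63 ± 0.04 (SE, limma adjusted p = 2.24e-05). The row does not separate the transcripts of p14ARF and p16INK4a. Epithelial markers (EPCAM, KRT8, KRT18, KRT19, CDH1) were all present, summing to 907 to 1004 TPM in Ctrl, 439 to 504 TPM in MLN, 1138 to 1280 TPM in shARF and 433 to 450 TPM in Both, while KLK3 was at 0 in every library. Leukocyte markers summed to at most 1.07 TPM, fibroblast markers to 7.52 to 9.20 TPM in Ctrl, 21.4 to 23.5 TPM in MLN and 8.74 to 12.7 TPM in the other conditions, and endothelial markers, mostly PECAM1, to 11 to 12.6 TPM in Ctrl and at most 1.97 TPM elsewhere. The part of these shifts in the results below was not tested. MLN replicate 1 stood apart from the other MLN libraries with 128751 TPM in mitochondrially encoded transcripts, against 84312 and 86091 TPM. The other conditions spread as well. These transcripts took 78478 (replicate 1) to 108844 TPM in Ctrl, 60379 (replicate 5) to 80338 TPM in shARF and 102430 to 131598 TPM (replicate 4) in Both. In bulk RNA, fewer cells of a type and less RNA per cell cannot be told apart.

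Antioxidant response elements contain the core TGACNNNGC, where N is any base. This core was searched on both strands from 250 bases before to 50 bases after each RefSeq gene start (GRCh38.p14). Of the 39 genes, 28 had such a window and 9 of them (32.1%) held the core: KEAP1, GCLM, GPX2, TXNRD1, PGD, ME1, EPHX1, CBR1 and PIR. Over all 27305 genes with a window, 4384 (16.1%) held it. In ME1 and PIR the match overlapped the AP-1 motif TGACTCA or its reverse. The stretches below show the core, in capitals, in 1 regulator and in genes of 4 roles. They are written 5′ to 3′ on the strand of the gene, so a core on the opposite strand reads GCNNNGTCA.
KEAP1, chr19:10502778-10502818, minus strand, core from position -31 relative to the start: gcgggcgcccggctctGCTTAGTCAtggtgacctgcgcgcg
GCLM, chr1:93909440-93909480, minus strand, core from position -34 relative to the start: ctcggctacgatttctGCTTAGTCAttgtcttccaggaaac
GPX2, chr14:64942843-64942883, minus strand, core from position -122 relative to the start: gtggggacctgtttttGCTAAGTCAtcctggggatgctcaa
TXNRD1, chr12:104286914-104286954, plus strand, core from position -102 relative to 1 of its RefSeq starts: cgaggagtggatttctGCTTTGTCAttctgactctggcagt
CBR1, chr21:36069849-36069889, plus strand, core from position -159 relative to the start: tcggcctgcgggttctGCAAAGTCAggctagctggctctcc
ME1, chr6:83431164-83431204, minus strand, core from position -137 relative to the start: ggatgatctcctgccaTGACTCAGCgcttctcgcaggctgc
KEAP1, GCLM, GPX2, TXNRD1 and CBR1 were all higher with MLN4924, whereas ME1 and PIR, which also hold the core, were lower. A match in these letters is a description of the sequence and not evidence of binding, and elements further from the start were not searched.

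Most of the 39 genes were higher with MLN4924 in both cell populations. In PC3 cells (MLN vs Ctrl), 32 of 39 (82.1%) rose and 5 fell at a limma adjusted p below 0.05, where 32.2% of all tested genes rose and 29.4% fell. In PC3-shp14ARF cells (Both vs shARF), 34 rose and 4 fell, where 28.3% of all genes rose and 32.8% fell. The genes were chosen with earlier results known, so these shares describe them and do not test the pathway. Increases beyond a log2 difference of 1 were seen for 26 genes in PC3 cells (15.6% of all genes) and for 23 after p14ARF depletion (13% of all genes). Decreases of that size were limited to ABCC1 in PC3 cells (12.4% of all genes), and none of the 39 genes, at an adjusted or an unadjusted p below 0.05, fell that far in PC3-shp14ARF cells (13.4% of all genes). The median log2 difference of the 39 genes was 1.33 for the PC3 comparison and 1.38 for the PC3-shp14ARF comparison, against 0.05 and -0.04 over all tested genes. In all, 32 genes rose in both populations, ME1, ABCC1 and PIR fell in both, and ABCC3 and SQSTM1 fell in PC3 cells but rose in PC3-shp14ARF cells. TKT fell in PC3-shp14ARF cells and did not pass the test in PC3 cells, and FTH1 passed the test in neither. The heatmap of all 39 genes shows these groups by role. Throughout, log2 differences are on the log2(TPM + 0.1) scale, which understates the change of low genes, folds are ratios of mean TPM, and values after ± are SDs over 3 libraries for means and SEs for log2 differences.

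**Figure D1:**
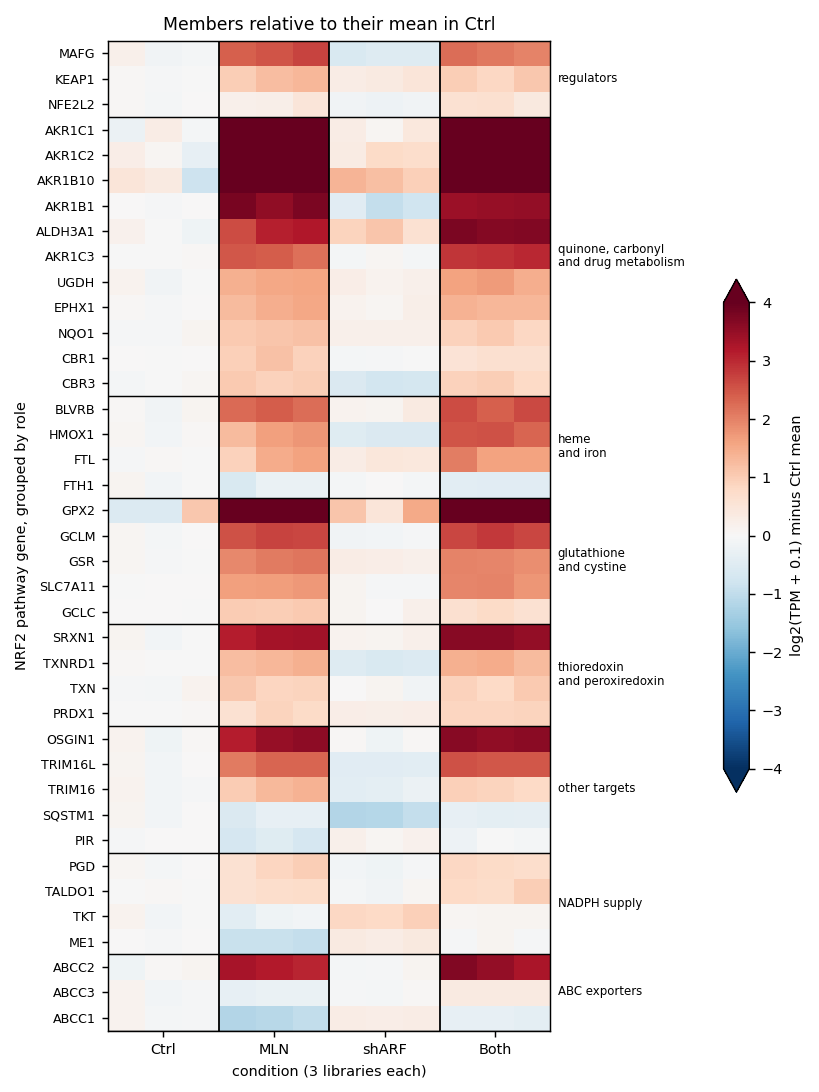
Each row is 1 of the 39 NRF2 pathway genes and each column 1 library, with colour giving log2(TPM + 0.1) minus the mean of that gene in Ctrl, limited to 4 in either direction. The MLN and Both columns are red for most rows, and AKR1C1, AKR1C2, AKR1B10 and GPX2 exceed the colour limit in all 6 MLN4924-treated libraries.

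KEAP1 and MAFG transcripts rose with the drug and NFE2L2 transcripts rose less. NFE2L2 measured 87.1, 80.7 and 86.2 TPM in Ctrl, 98.4, 100.03 and 119 TPM in MLN, 77.2, 74.0 and 76.2 TPM in shARF and 129, 132 and 111 TPM in Both. Treated and untreated libraries did not overlap in either population, but the fold was 1.25 in PC3 cells (log2 difference 0.32 ± 0.08, limma adjusted p = 0.0178) and 1.64 in PC3-shp14ARF cells (0.71 ± 0.07, adjusted p = 3.56e-04). Without Ctrl replicate 2 the first of these no longer passed the test (adjusted p = 0.0632). KEAP1, the substrate adaptor that captures NRF2, measured 78.3, 72.3 and 74.4 TPM in Ctrl, 149.8, 177 and 189 TPM in MLN, 92.5, 95.6 and 104 TPM in shARF and 147, 133 and 157 TPM in Both. Its level was 2.29-fold higher in MLN than in Ctrl and 1.5-fold higher in Both than in shARF, with every treated library above every untreated one. MAFG, a small MAF protein that dimerizes with NRF2, measured 61.8, 49.0 and 51.3 TPM in Ctrl, 280.3, 309 and 348 TPM in MLN, 35.2, 37.6 and 37.5 TPM in shARF and 255, 232 and 212 TPM in Both. The treated libraries were far above the others, by 5.78-fold in PC3 cells (log2 difference 2.53 ± 0.12, adjusted p = 1.77e-05) and 6.33-fold in PC3-shp14ARF cells (2.66 ± 0.07, adjusted p = 3.15e-06).

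**Figure D2:**
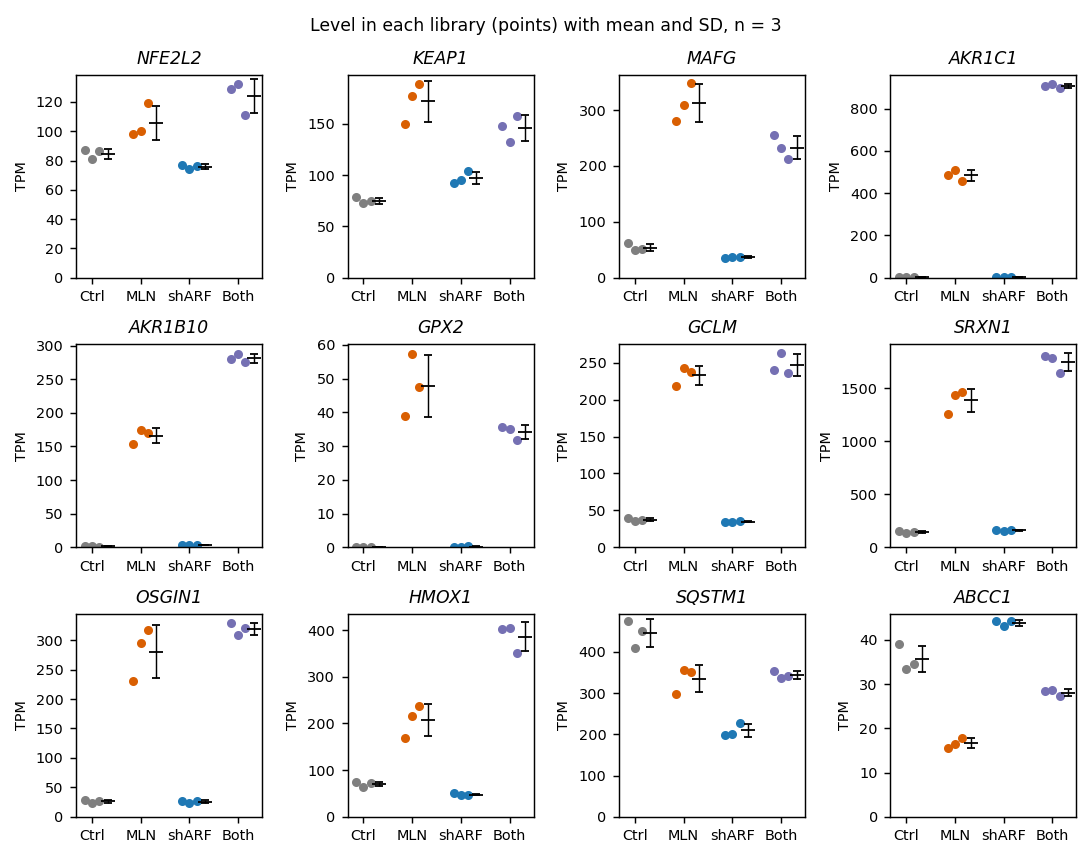
TPM in each library (points) with the mean and SD (bars, n = 3) for 12 of the genes in Ctrl, MLN, shARF and Both, each panel on its own linear axis from 0. AKR1C1 and AKR1B10 rise from near 0 in untreated cells and are highest in Both, NFE2L2 stays between 74.0 and 132 TPM, ABCC1 is lowest in MLN, and SQSTM1 is lowest in shARF.

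On the log2(TPM + 0.1) scale AKR1C1 had the largest difference of the 39 genes in both populations, and AKR1C2, AKR1B10 and GPX2, described further on, followed it. With a pseudocount of 0.01 the difference of GPX2 was the larger in PC3 cells. AKR1C1, AKR1C2 and AKR1B10 are aldo-keto reductases, NADPH-dependent enzymes that reduce aldehydes, ketones and steroids. AKR1C1, AKR1C2 and AKR1C3 are neighbours on chromosome 10 (chr10:4963253-4983283, chr10:4987775-5018031 and chr10:5035354-5107686, GRCh38). AKR1C1, which inactivates progesterone, measured 1.03, 1.55 and 1.16 TPM in Ctrl, 486, 508 and 459 TPM in MLN, 1.54, 1.29 and 1.68 TPM in shARF and 908, 914 and 895 TPM in Both. It went from barely detected to abundant, 388-fold in PC3 cells (log2 difference 8.5 ± 0.14, limma adjusted p = 1.55e-06) and 601-fold in PC3-shp14ARF cells (9.15 ± 0.09, adjusted p = 2.91e-07). AKR1C2, which reduces dihydrotestosterone, measured 0.411, 0.347 and 0.235 TPM in Ctrl, 80.4, 88.1 and 80.2 TPM in MLN, 0.439, 0.625 and 0.590 TPM in shARF and 215, 224 and 218 TPM in Both, and its log2 differences were 7.61 ± 0.17 and 8.41 ± 0.12. The Both libraries of AKR1C1 and AKR1C2 were above all MLN libraries. AKR1C3, which makes testosterone from androstenedione, was already expressed in untreated cells and measured 12.5, 12.5 and 13.0 TPM in Ctrl, 71.7, 68.2 and 59.1 TPM in MLN, 11.9, 13.4 and 12 TPM in shARF and 92.1, 96.3 and 103 TPM in Both. Its increase was 5.24-fold and 7.79-fold, smaller than those of its neighbours in both populations. The coding sequences of AKR1C1 and AKR1C2 are 98.04% identical over 969 bases, so the division of reads between them is uncertain and their sum is safer. That sum was 1.58 ± 0.278 TPM in Ctrl, 567 ± 28.6 TPM in MLN, 2.06 ± 0.189 TPM in shARF and 1125 ± 12.8 TPM in Both. AKR1C3 is 91.43% identical to AKR1C1, and the 3 genes together took 14.2 ± 0.248 TPM in Ctrl and 633 ± 33.4 TPM in MLN, and 14.5 ± 0.720 TPM in shARF and 1222 ± 11.3 TPM in Both.

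The AKR1B enzymes, encoded together on chromosome 7, followed the same direction. AKR1B10 (chr7:134527567-134541412), a reductase of retinal and other aldehydes, measured 2.06, 1.89 and 0.784 TPM in Ctrl, 153, 175 and 169 TPM in MLN, 3.88, 3.47 and 2.91 TPM in shARF and 280.3, 288 and 275 TPM in Both. All treated libraries were far above the untreated ones, with folds of 105 and 82.2. Its coding sequence is 93.46% identical to that of the adjacent AKR1B15, so some sharing of reads is possible. AKR1B1 (chr7:134442356-134459284), aldose reductase, measured 4.14, 4.01 and 4.15 TPM in Ctrl, 57.8, 49.2 and 57.1 TPM in MLN, 2.97, 2.08 and 2.34 TPM in shARF and 45.1, 46.6 and 47.5 TPM in Both. It rose 13.3-fold in PC3 cells (log2 difference 3.70 ± 0.08) and 18.8-fold in PC3-shp14ARF cells (4.20 ± 0.13), from a base that was lower in shARF than in Ctrl.

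The remaining 6 genes of quinone, carbonyl and drug metabolism rose by smaller factors than AKR1B10 and AKR1B1. ALDH3A1, an aldehyde dehydrogenase, measured 2.51, 2.21 and 1.98 TPM in Ctrl, 13.9, 20.1 and 21.1 TPM in MLN, 4.22, 4.88 and 3.48 TPM in shARF and 31.5, 29.8 and 30.5 TPM in Both, increases of 8.23-fold and 7.29-fold. NQO1, the quinone reductase long used as a reporter of NRF2, was abundant without drug and measured 378, 378 and 417 TPM in Ctrl, 814, 840.3 and 885 TPM in MLN, 447, 448 and 445 TPM in shARF and 747, 809 and 695 TPM in Both. The treated libraries of NQO1 were all above the untreated ones, by 2.17-fold in PC3 and 1.68-fold in PC3-shp14ARF cells. UGDH, which supplies the UDP-glucuronate used to conjugate drugs, measured 39.8, 33.1 and 36.2 TPM in Ctrl, 97.5, 106 and 108 TPM in MLN, 43.7, 40.1 and 41.7 TPM in shARF and 111, 118 and 99.8 TPM in Both. EPHX1, the microsomal epoxide hydrolase, measured 97.5, 90.2 and 94.6 TPM in Ctrl, 227, 260.3 and 274 TPM in MLN, 104, 98.7 and 111 TPM in shARF and 244, 237 and 237 TPM in Both. Both genes were more than doubled by the drug in each population, with folds of 2.85 and 2.62 for UGDH and 2.70 and 2.29 for EPHX1. CBR1, the main carbonyl reductase, measured 183, 176 and 179.6 TPM in Ctrl, 345, 402 and 343 TPM in MLN, 169, 172 and 176 TPM in shARF and 264, 277 and 278 TPM in Both. Its neighbour CBR3 measured 53.5, 55.7 and 59.9 TPM in Ctrl, 116, 106 and 111 TPM in MLN, 38.0, 33.5 and 34.9 TPM in shARF and 106, 110.3 and 98.5 TPM in Both. In CBR1 the larger fold was in PC3 cells (2.03 against 1.59), in CBR3 it was in PC3-shp14ARF cells (1.97 against 2.96). All 11 genes of this role rose in both populations, with median log2 differences of 2.37 and 2.85.

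All 5 genes of glutathione synthesis and use rose with MLN4924 in both populations. GCLM, the regulatory subunit of the enzyme that sets the rate of glutathione synthesis, measured 39.2, 35.3 and 37.4 TPM in Ctrl, 219, 243 and 237 TPM in MLN, 34.0, 34.2 and 36.1 TPM in shARF and 240.2, 264 and 237 TPM in Both. Its catalytic partner GCLC measured 24.6, 24.6 and 24.2 TPM in Ctrl, 49.6, 48.5 and 50.1 TPM in MLN, 26.1, 24.7 and 27.9 TPM in shARF and 38.3, 41.4 and 37.0 TPM in Both. Subunit transcripts therefore moved unequally, 6.25-fold for GCLM against 2.02-fold for GCLC in PC3 cells and 7.10-fold against 1.48-fold in PC3-shp14ARF cells. The GCLM to GCLC ratio, both in TPM, was 1.53 ± 0.0833 for Ctrl, 4.72 ± 0.303 for MLN, 1.33 ± 0.0475 for shARF and 6.35 ± 0.0738 for Both. SLC7A11, the cystine importer that feeds this synthesis, measured 53.1, 54.1 and 54.4 TPM in Ctrl, 168, 170.1 and 181 TPM in MLN, 57.7, 51.6 and 52.1 TPM in shARF and 209, 215 and 182 TPM in Both, and rose 3.21-fold and 3.75-fold. GSR, which returns oxidized glutathione to its reduced form, measured 94.6, 86.9 and 90.2 TPM in Ctrl, 341, 380.1 and 403 TPM in MLN, 111, 109.6 and 104 TPM in shARF and 359, 349 and 328 TPM in Both, with every treated library at least 3 times the highest untreated mean. GPX2, a glutathione peroxidase of epithelia, was listed at 0 in 2 Ctrl libraries and at 0.203 TPM in the other, and measured 38.8, 57.4 and 47.4 TPM in MLN, 0.210, 0.104 and 0.318 TPM in shARF and 35.6, 35.1 and 31.9 TPM in Both. No fold is given against Ctrl for it. In PC3-shp14ARF cells GPX2 was 162-fold higher with drug (log2 difference 6.85 ± 0.27, limma adjusted p = 9.52e-06), from a base of 0.210 ± 0.107 TPM.

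All 4 genes of the thioredoxin and peroxiredoxin system rose as well. SRXN1, sulfiredoxin, which repairs overoxidized peroxiredoxins, measured 154, 134 and 143 TPM in Ctrl, 1258, 1437 and 1461 TPM in MLN, 159.7, 156 and 164 TPM in shARF and 1799.8, 1788 and 1646 TPM in Both. That is a 9.64-fold and a 10.9-fold increase, with limma adjusted p of 3.68e-06 and 7.86e-07. TXNRD1, thioredoxin reductase, measured 886, 840.5 and 838 TPM in Ctrl, 2005, 2159.5 and 2294 TPM in MLN, 600.2, 559.6 and 582 TPM in shARF and 2307, 2369 and 2042 TPM in Both. Its treated libraries overlapped between the 2 populations, whereas the shARF libraries started below the Ctrl libraries. TXN, thioredoxin itself, rose 1.92-fold in PC3 cells (from 725 ± 61.4 to 1390.0 ± 115 TPM) and 1.91-fold in PC3-shp14ARF cells (from 722 ± 58.4 to 1382 ± 125 TPM). PRDX1, an abundant peroxiredoxin, rose 1.68-fold (from 2339 ± 54.7 to 3936 ± 380.2 TPM) and 1.53-fold (from 2805 ± 24.7 to 4283 ± 51.9 TPM). SRXN1 thus had the largest change of the 4 genes and PRDX1 the smallest, in both populations.

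Of the heme and iron genes, HMOX1, BLVRB and FTL rose while FTH1 did not pass the test. HMOX1, heme oxygenase, measured 74.1, 64.6 and 72.0 TPM in Ctrl, 169, 217 and 237 TPM in MLN, 49.9, 46.6 and 46.5 TPM in shARF and 402, 406 and 351 TPM in Both. The fold was 2.95 in PC3 cells (log2 difference 1.55 ± 0.13, limma adjusted p = 1.65e-04) and 8.10 in PC3-shp14ARF cells (3.01 ± 0.07, adjusted p = 1.92e-06), and the Both libraries lay above all MLN libraries although shARF lay below Ctrl. BLVRB, a biliverdin reductase that acts on a product of heme breakdown, measured 57.8, 51.7 and 60.6 TPM in Ctrl, 274, 307 and 269 TPM in MLN, 62.2, 61.1 and 72.5 TPM in shARF and 348, 295 and 357 TPM in Both, with nearly equal folds in the 2 populations (4.99 and 5.11). FTL, the ferritin light chain, measured 2510.3, 2672 and 2553 TPM in Ctrl, 4855, 7174 and 7811 TPM in MLN, 3148, 3539 and 3469.9 TPM in shARF and 10599.9, 7889 and 7940.4 TPM in Both. MLN replicate 1, the MLN library with the most mitochondrial transcripts, was the lowest of the MLN libraries for FTL and still above every Ctrl library. FTH1, the ferritin heavy chain, ranged from 14167 to 16463 TPM in Ctrl and from 10040.2 to 12569.8 TPM in MLN, from 14356 to 15255 TPM in shARF and from 11001 to 11249.9 TPM in Both, with log2 differences of -0.39 ± 0.21 in PC3 cells (adjusted p = 0.168) and -0.40 ± 0.15 in PC3-shp14ARF cells (adjusted p = 0.0580). The groups did not overlap, and FTH1 passed as lower in both comparisons at a minimum mean of 1 TPM (adjusted p = 0.0338 and 0.00485) and without the trend in eBayes (0.0388 and 0.00181). The FTL to FTH1 ratio was 0.170 ± 0.0181 for Ctrl, 0.559 ± 0.0709 for MLN, 0.231 ± 0.0112 for shARF and 0.791 ± 0.132 for Both. Reads of FTH1 and FTL may be shared with their many processed pseudogenes, of which GENCODE lists 25 and 16 and the table used here none by those names.

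The genes grouped under NADPH supply and the pentose phosphate pathway split. PGD, of the oxidative pentose phosphate pathway, rose from 271 ± 16.1 to 480.4 ± 61.6 TPM and from 250.3 ± 10.5 to 462 ± 17.1 TPM. TALDO1, transaldolase, rose from 177 ± 4.98 to 284 ± 11.6 TPM and from 170.5 ± 12.7 to 316 ± 27.3 TPM. Both enzymes stayed below a doubling. ME1, cytosolic malic enzyme, measured 85.7, 83.0 and 86.2 TPM in Ctrl, 46.0, 45.5 and 43.4 TPM in MLN, 108, 103 and 111 TPM in shARF and 81.7, 92.1 and 82.9 TPM in Both, and fell with drug in each population (log2 differences -0.92 ± 0.04 and -0.33 ± 0.06, limma adjusted p = 1.80e-05 and 0.00349). Its Both libraries were near the Ctrl level and its MLN libraries were the lowest. TKT, transketolase, averaged 93.9 ± 7.89 TPM in Ctrl and 80.2 ± 9.57 TPM in MLN with overlapping libraries (log2 difference -0.23 ± 0.11, adjusted p = 0.105), and fell from 170.2 ± 10.6 TPM in shARF to 101 ± 1.87 TPM in Both (-0.75 ± 0.05, adjusted p = 7.19e-05).

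The exporters also diverged. ABCC2, which pumps glutathione and glucuronide conjugates across the apical membrane, measured 0.426, 0.504 and 0.536 TPM in Ctrl, 5.73, 5.14 and 4.77 TPM in MLN, 0.455, 0.474 and 0.535 TPM in shARF and 7.59, 6.56 and 5.55 TPM in Both, rising 10.7-fold and 13.5-fold from a low base. ABCC1, its relative in the plasma membrane, measured 38.9, 33.5 and 34.6 TPM in Ctrl, 15.6, 16.5 and 17.9 TPM in MLN, 44.2, 43.1 and 44.2 TPM in shARF and 28.3, 28.6 and 27.2 TPM in Both. Untreated libraries were all above treated ones for ABCC1, with log2 differences of -1.09 ± 0.08 in PC3 cells and -0.64 ± 0.04 after p14ARF depletion. ABCC3, another conjugate exporter, averaged 33.0 ± 3.22 TPM in Ctrl, 26.9 ± 0.710 TPM in MLN, 32.3 ± 1.47 TPM in shARF and 42.1 ± 0.223 TPM in Both. Its log2 differences were -0.29 (limma adjusted p = 0.0180, and 0.0595 without MLN replicate 1) and 0.38 (adjusted p = 5.31e-04), opposite in sign.

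Other genes tied to the pathway included OSGIN1, a growth inhibitor induced by oxidative stress, which measured 28.6, 23.3 and 27.0 TPM in Ctrl, 230.1, 295 and 317 TPM in MLN, 27.0, 23.3 and 27.2 TPM in shARF and 329, 309 and 321 TPM in Both. It rose 10.7-fold and 12.4-fold from bases that overlapped. TRIM16, a tripartite motif protein, measured 28.4, 23.9 and 24.9 TPM in Ctrl, 51.9, 63.2 and 66.9 TPM in MLN, 19.2, 19.6 and 21.8 TPM in shARF and 49.6, 47.2 and 44.9 TPM in Both. TRIM16L, a related gene annotated as non-coding in GENCODE, measured 15.8, 13.9 and 14.9 TPM in Ctrl, 62.3, 74.5 and 75.4 TPM in MLN, 10.8, 10.7 and 11.1 TPM in shARF and 87.8, 84.3 and 83.2 TPM in Both. The transcripts of TRIM16 and TRIM16L match at 98.72% over 1176 bases, so the split between them is uncertain, and their summed level was 40.6 ± 3.34 TPM in Ctrl, 131 ± 15.1 TPM in MLN, 31.1 ± 1.56 TPM in shARF and 132 ± 4.74 TPM in Both. SQSTM1, p62, an autophagy receptor that can bind KEAP1, measured 475, 408 and 451 TPM in Ctrl, 297, 356 and 352 TPM in MLN, 199, 201 and 228 TPM in shARF and 354, 336 and 342 TPM in Both. The SQSTM1 libraries fell from Ctrl to MLN (log2 difference -0.41 ± 0.10, limma adjusted p = 0.0107) and rose from shARF to Both (0.72 ± 0.06, adjusted p = 1.91e-04), with overlapping treated libraries. PIR, pirin, fell from 98.0 ± 2.23 to 64.5 ± 4.56 TPM in PC3 cells and from 109 ± 4.82 to 92.0 ± 6.31 TPM in PC3-shp14ARF cells, where the adjusted p of 0.0172 was lost without shARF replicate 1 (0.0650) or without shARF replicate 5 (0.0578).

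**Figure D3:**
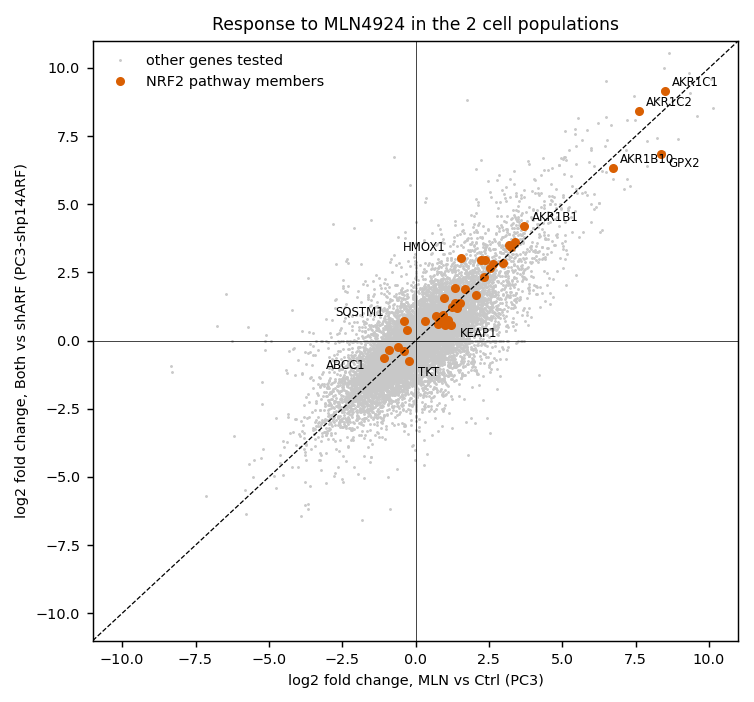
Log2 difference with MLN4924 in PC3 cells (horizontal axis) against the same in PC3-shp14ARF cells (vertical axis) for the 39 genes (orange) and the other tested genes (grey), with the line of equal response dashed. AKR1C1, AKR1C2, AKR1B10 and GPX2 lie at the upper right, HMOX1 and SQSTM1 above the line, and KEAP1 and TKT below it.

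In neither population did treated and untreated libraries overlap in the summed level of the 39 genes, with or without ferritin. The 39 genes together took 24514 ± 1205 TPM in Ctrl, 33447 ± 3840.3 TPM in MLN, 24830.1 ± 610.3 TPM in shARF and 36668 ± 1827 TPM in Both. Ferritin made up most of that. Without FTH1 and FTL the sums were 6693 ± 191, 15123 ± 863, 6788 ± 62.7 and 16725 ± 243 TPM in the same order.

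Without drug, 19 of the genes differed between PC3-shp14ARF and PC3 cells, 1 of them beyond a log2 difference of 1. This comparison shares its Ctrl libraries with MLN vs Ctrl and its shARF libraries with Both vs shARF, which share none with each other. In shARF vs Ctrl 10 of 39 genes were higher, where 21% of all tested genes were, and 9 were lower, where 20.4% were, shares near those of all genes. None rose beyond a log2 difference of 1 (3.87% of all genes), although AKR1B10 did at an unadjusted limma p below 0.05, and only SQSTM1 fell beyond it (6.6% of all genes). SQSTM1 was 2.13-fold lower (log2 difference -1.09 ± 0.08, limma adjusted p = 5.81e-04), with every shARF library below every Ctrl library. The other genes that were lower were AKR1B1 (-0.73), CBR3 (-0.67), TXNRD1 (-0.56), HMOX1 (-0.56), MAFG (-0.55), TRIM16L (-0.45), TRIM16 (-0.35) and NFE2L2 (-0.16), all as log2 differences. Those that were higher were ALDH3A1 (0.87), TKT (0.86), FTL (0.39), KEAP1 (0.37), ME1 (0.34), ABCC1 (0.30), GSR (0.26), PRDX1 (0.26), NQO1 (0.19) and PIR (0.15). With a block on shared column numbers, described further on, limma called 0 genes higher and 0 lower. Of the 19 calls above, 8 were lost when a single library was left out. PIR failed without any library but shARF replicate 3, NFE2L2 without any but Ctrl replicate 2, NQO1 without any but Ctrl replicate 3, PRDX1 without Ctrl replicate 2 or any shARF library, TRIM16 without Ctrl replicate 3 or shARF replicate 1 or 3, ABCC1 without Ctrl replicate 3 or shARF replicate 1 or 5, FTL without Ctrl replicate 3 or shARF replicate 3, and AKR1B1 without Ctrl replicate 3. The count of higher genes was 6 without shARF replicate 1. Without Ctrl replicate 3, 1 gene was higher beyond 1, GPX2 with a log2 difference of 1.57 (limma adjusted p = 0.0334). GPX2 was then at 0 in both remaining Ctrl libraries and at 0.104 to 0.318 TPM in shARF. The size of that difference therefore depends on the 0.1 TPM added before taking logs.

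Under MLN4924, 4 of the 5 aldo-keto reductases, ME1 and HMOX1 were among the genes that were higher in PC3-shp14ARF than in PC3 cells. In Both vs MLN 11 of 39 genes were higher, where 11.8% of all tested genes were, and 4 were lower, where 20.6% were. With median-of-ratios scaling 15 were higher and 3 lower, and the share of higher among all called genes moved from 36.4% to 51.3%. Only AKR1C2 was higher beyond a log2 difference of 1 (2.18% of all genes), at 2.64-fold (log2 difference 1.40 ± 0.06, limma adjusted p = 2.07e-04), and none of the 39 genes was lower beyond it by limma at an adjusted or an unadjusted p below 0.05 (6.84% of all genes). Also higher in Both were ME1 at 1.90-fold, AKR1C1 at 1.87-fold, HMOX1 at 1.86-fold, AKR1B10 at 1.70-fold, ABCC1 at 1.68-fold, ALDH3A1 at 1.66-fold, ABCC3 at 1.56-fold, AKR1C3 at 1.47-fold, PIR at 1.43-fold and TKT at 1.26-fold. Lower in Both were MAFG by 1.34-fold, CBR1 by 1.33-fold, TRIM16 by 1.28-fold and GCLC by 1.27-fold. Calls were lost for MAFG without MLN replicate 2 or 5 or Both replicate 3 or 4, for TKT without MLN replicate 2 or any Both library, for TRIM16 without MLN replicate 2 or 5 or any Both library, for ALDH3A1 without any Both library and for CBR1 without Both replicate 2. Without MLN replicate 5 the number lower was 2 and the number higher beyond 1 was 2, with HMOX1 added at 1.01. The median log2 difference of the 39 genes was 0.15 against -0.08 over all genes, and 0.063 without MLN replicate 1. NRF2 transcripts themselves did not pass the test here (log2 difference 0.23 ± 0.10, adjusted p = 0.142), and GCLM, TXN, PGD and EPHX1 had overlapping libraries. NFE2L2 did pass as higher with median-of-ratios scaling (0.32, limma adjusted p = 0.0366) and with 1 fit to 12 libraries (0.23, adjusted p = 0.0415).

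The interaction term, the drug response of PC3-shp14ARF cells minus that of PC3 cells, tested whether the responses themselves differed. It was positive for 14 of 39 genes, where 11.2% of all tested genes were, and negative for 6, where 17.1% were. With median-of-ratios scaling these were 17 and 6, and the share of positive among all called genes moved from 39.5% to 53.4%. HMOX1 (interaction 1.46 ± 0.15 on the log2 scale, limma adjusted p = 3.51e-05) and SQSTM1 (1.13 ± 0.12, adjusted p = 3.54e-05) were the only 2 positive beyond 1 (3.52% of all genes). None was negative beyond 1 by the adjusted p (4.95% of all genes), where GPX2 was at an unadjusted p below 0.05 (-1.51 ± 0.54, adjusted p = 0.0558) and passed the test without Ctrl replicate 3 (-2.04, adjusted p = 0.00180), the only Ctrl library in which it was above 0. Among the 32 genes that rose with drug in both populations, the rise was larger in PC3-shp14ARF cells for 9, namely HMOX1, AKR1C2 (0.80 ± 0.21), TRIM16L (0.72 ± 0.11), AKR1C1 (0.64 ± 0.17), TXNRD1 (0.61 ± 0.11), CBR3 (0.58 ± 0.09), AKR1C3 (0.58 ± 0.11), AKR1B1 (0.49 ± 0.16) and NFE2L2 (0.39 ± 0.12). It was smaller for 5, KEAP1 (-0.61 ± 0.12), GCLC (-0.45 ± 0.08), GSR (-0.37 ± 0.09), NQO1 (-0.37 ± 0.10) and CBR1 (-0.35 ± 0.09), and the term was not past the threshold for the other 18. For HMOX1, TXNRD1, CBR3, TRIM16L, AKR1B1 and NFE2L2 the shARF libraries were also below the Ctrl libraries, and for KEAP1, NQO1 and GSR above them, so the starting levels differed. Outside these 32 genes, SQSTM1 also started lower in shARF (log2 difference -1.09), and its treated libraries overlapped (0.04 ± 0.08 in Both vs MLN, limma adjusted p = 0.729). TKT (0.86), ME1 (0.34), ABCC1 (0.30) and PIR (0.15) started higher in shARF than in Ctrl. The shARF libraries of GCLC and AKR1C2 were above those of Ctrl too, without passing the test (limma adjusted p = 0.162 and 0.0830). The call of AKR1B1 was lost without any 1 of the Ctrl or Both libraries, MLN replicate 2 or shARF replicate 3 or 5 (limma adjusted p up to 0.0849). That of NFE2L2 was lost without Ctrl replicate 1 or 3, MLN replicate 1 or 2, shARF replicate 3 or Both replicate 2 or 3 (up to 0.0633), and that of AKR1C2 with a pseudocount of 0.01 (0.0738). The median interaction over the 39 genes was 0.18 against -0.09 over all genes, and 0.086 without MLN replicate 1.

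**Figure D4:**
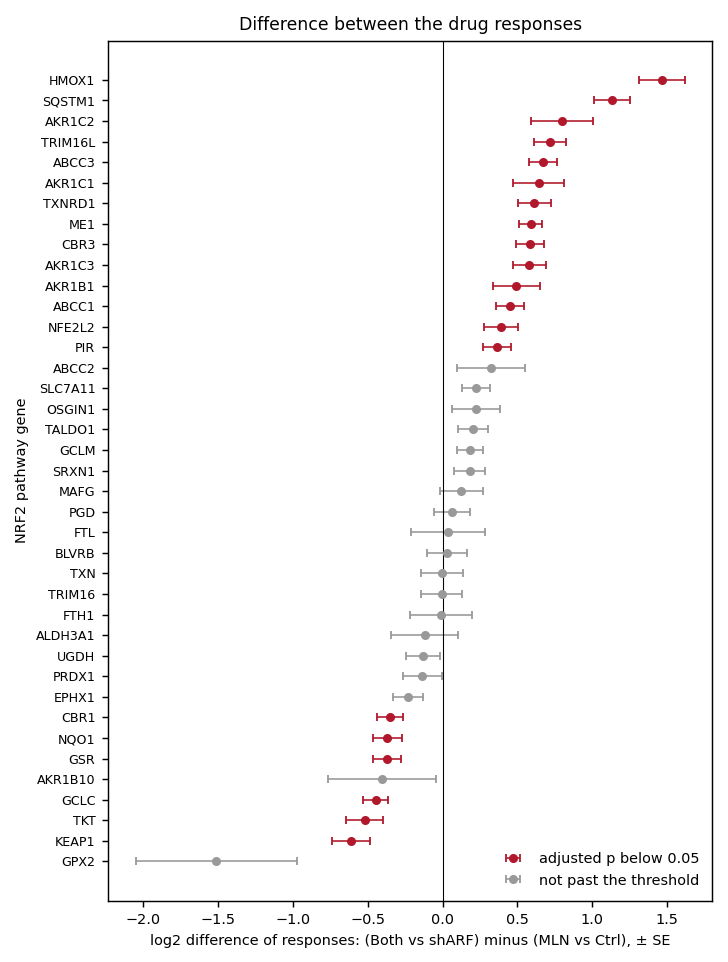
Difference between the MLN4924 responses of PC3-shp14ARF and PC3 cells for each of the 39 genes, as the log2 interaction term with its SE, red where the limma adjusted p was below 0.05. HMOX1 and SQSTM1 lie beyond 1, and the widest error is that of GPX2, whose term was -1.51.

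Genes of the same pathways outside the 39 moved in both directions. Their counts are read against all tested genes, of which 32.2% rose and 29.4% fell in PC3 cells and 28.3% rose and 32.8% fell in PC3-shp14ARF cells. Of 18 tested genes of NRF2 control and its partners, 4 rose and 10 fell in PC3 cells, and 5 rose and 8 fell in PC3-shp14ARF cells. The small MAF genes MAFK (log2 differences 2.06 ± 0.10 and 2.11 ± 0.09) and MAFF (1.89 ± 0.07 and 2.08 ± 0.05) rose along with MAFG, and NFE2L3, a relative of NRF2, fell from 154 ± 2.81 to 46.7 ± 1.30 TPM in PC3 cells. NFE2L3 was already at 26.0 ± 1.08 TPM in shARF. Of 23 tested glutathione genes, 11 rose and 6 fell in PC3 cells, and 9 rose and 11 fell in PC3-shp14ARF cells. Their largest movers at 5 TPM or more were CHAC1, which degrades glutathione (3.21 ± 0.09 and 3.36 ± 0.09), GSTO1, an omega-class transferase (1.27 ± 0.13 and 1.02 ± 0.07), and CHAC2 (1.19 ± 0.09 and 0.65 ± 0.06), all higher. CHAC1 and CHAC2 remove glutathione and do not make it. In the thioredoxin, peroxiredoxin and superoxide list, 9 of 18 rose and 5 fell in PC3 cells, against 4 and 11 in PC3-shp14ARF cells. SESN2, a stress-induced sestrin, rose (2.69 ± 0.15 and 2.99 ± 0.05), while MSRA, a methionine sulfoxide reductase (-1.97 ± 0.10 and -2.05 ± 0.08), and PRDX2 (-1.79 ± 0.10 and -2.27 ± 0.05) fell in both populations.

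Of 14 NADPH supply genes outside the 39, 9 fell and 2 rose in each population, where 29.4% and 32.8% of all tested genes fell. MTHFD2, a mitochondrial folate enzyme, rose (1.48 ± 0.06 and 1.52 ± 0.05), whereas NNT, the transhydrogenase (-0.89 ± 0.09 and -0.70 ± 0.05), and RPIA, of the pentose phosphate pathway (-0.70 ± 0.04 and -0.79 ± 0.04), fell. Of 15 heme and iron genes, 6 rose and 5 fell in PC3 cells, and 5 rose and 7 fell in PC3-shp14ARF cells. SLC40A1, ferroportin, the iron exporter, went from 6.77 ± 0.355 to 69.4 ± 2.56 TPM and from 8.10 ± 0.346 to 56.5 ± 4.39 TPM, and ABCB6 (1.24 ± 0.11 and 1.32 ± 0.07) and the heme transporter SLC48A1 (1.02 ± 0.09 and 1.07 ± 0.06) rose too. Of 24 other detoxification and export genes, 13 rose and 9 fell in PC3 cells, and 9 rose and 8 fell in PC3-shp14ARF cells. CYP4F11, a fatty acid hydroxylase, was listed at 0 in every Ctrl library and reached 35.4 ± 1.78 TPM in MLN and 138 ± 12.9 TPM in Both. PTGR1, which reduces enals, rose (2.07 ± 0.04 and 2.52 ± 0.05), and EPHX2, the soluble epoxide hydrolase, fell (-2.04 ± 0.13 and -1.94 ± 0.10), the opposite of EPHX1. GPX3, GSTA1, ALDH1L1 and ADH7 were below the filter and were not tested. In PC3 and PC3-shp14ARF cells respectively, the median log2 difference with drug was -0.40 and -0.16 for the control and partner list, 0.14 and -0.07 for glutathione, 0.17 and -0.33 for thioredoxin, peroxiredoxin and superoxide, -0.38 and -0.34 for NADPH supply, 0.13 and -0.07 for heme and iron and 0.49 and 0.31 for other detoxification and export genes. All of these lay closer to the medians over all genes (0.05 and -0.04) than those of the 39 genes did. The related lists leave out the 39 genes and were also chosen with earlier results known, so this contrast is a description and not a test. Without drug, 11 of 18 thioredoxin, peroxiredoxin and superoxide genes were higher and 2 lower in shARF than in Ctrl, where 21% and 20.4% of all tested genes were. The interaction was negative for 11 and positive for 1 of these 18, where 17.1% and 11.2% of all tested genes were. Of the 23 glutathione genes, 10 were higher and 5 lower in shARF, and the interaction was negative for 9 and positive for 2, to be read against the same shares of all genes.

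**Figure D5:**
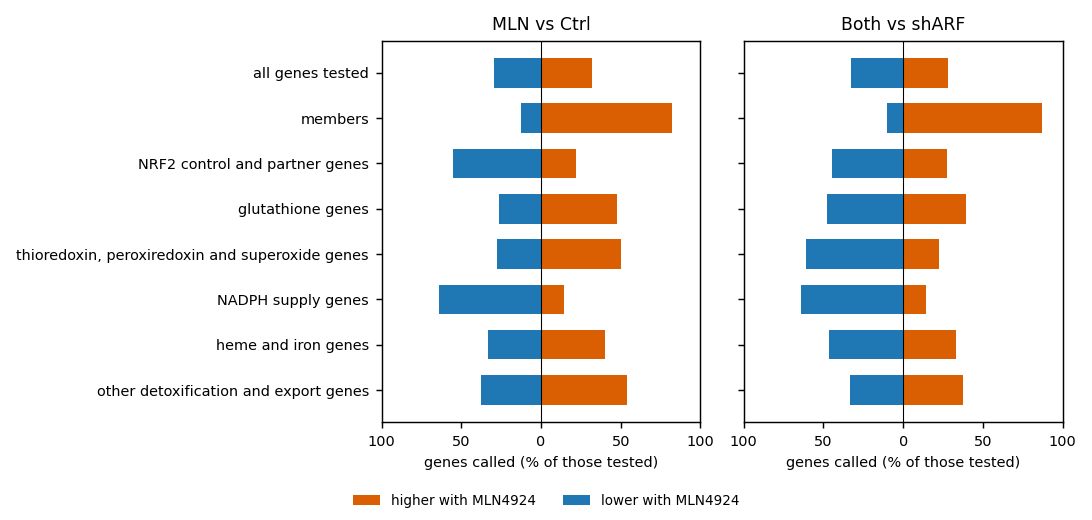
Percent of tested genes that were higher (orange, right) or lower (blue, left) with MLN4924 at a limma adjusted p below 0.05, with PC3 cells on the left and PC3-shp14ARF cells on the right, for all tested genes, the 39 genes and 6 lists of related genes. The 39 genes reach 82.1% and 87.2% higher, and the NADPH supply genes lean lower in both populations.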

How the data were processed

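RNA-seq was run on PC3 and PC3-shp14ARF cells in DMSO or MLN4924. The authors trimmed reads, mapped them to hg38 and quantified Ensembl GRCh38 genes in CLC Genomics Workbench. The deposited values are TPM, with every library summing to 1000000, so a rise in some genes lowers others. Read length and strandedness are not given in the sources used here, and labels and study name different RNA kits. Columns were assigned to conditions by name, 0 per-sample columns were left unused, and the table holds no comparison columns.

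Values were analysed as log2(TPM + 0.1) with limma 3.58.1 (R 4.3.3, trended eBayes), each pairwise comparison on its own 6 libraries and the interaction on all 12. Every fit used the genes averaging 0.1 TPM or more over the 12 libraries. P-values were Benjamini-Hochberg adjusted over all tested genes (threshold 0.05). Alternatives were pseudocounts of 0.01 and 1, a minimum of 1 TPM and none, median-of-ratios scaling, eBayes without trend, 1 fit to 12 libraries, a replicate block and each library left out. Tables were handled in Python 3.11.15 with pandas 2.3.3 and numpy 2.4.6. The fit was tested on simulated data.

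The 39 genes and the related lists were chosen with earlier results of these data known. Values in every library were given for regulators and for genes averaging 1 TPM or more that passed the test beyond a log2 difference of 1 in any comparison, plus ME1. In each related list the 3 genes of at least 5 TPM that changed most in MLN vs Ctrl were named. Promoter windows and starts came from RefSeq (GRCh38.p14), and gene coordinates and sequence identities from a GENCODE release other than that of the authors.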

Additional observations from a re-analysis of the deposited data

Results flagged for a closer look

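For 20 of the 39 genes the response to MLN4924 differed between PC3-shp14ARF and PC3 cells by the interaction term in limma at an adjusted p below 0.05. The term was positive for 14 genes (35.9%), where 11.2% of all tested genes were. It was negative for 6 (15.4%), where 17.1% were, so the negative share was near that of all genes. In log2 units, the response in PC3-shp14ARF cells exceeded that in PC3 cells for HMOX1 (1.46), SQSTM1 (1.13), AKR1C2 (0.80), TRIM16L (0.72), ABCC3 (0.67), AKR1C1 (0.64), TXNRD1 (0.61), ME1 (0.59), CBR3 (0.58), AKR1C3 (0.58), AKR1B1 (0.49), ABCC1 (0.45), NFE2L2 (0.39) and PIR (0.36). It was below that in PC3 cells for KEAP1 (-0.61), TKT (-0.52), GCLC (-0.45), GSR (-0.37), NQO1 (-0.37) and CBR1 (-0.35). For ABCC3 and SQSTM1 the 2 responses had opposite signs, and for ME1, ABCC1 and PIR the positive term is a smaller fall. Untreated levels differed for several of these genes, as given above. Among them, SQSTM1 was lower (log2 difference -1.09) and TKT higher (0.86) in shARF than in Ctrl. Treated SQSTM1 libraries overlapped between the populations (0.04 in Both vs MLN, limma adjusted p = 0.729).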

How the results depend on the processing

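No value that passed the test changed sign under any alternative. Outside the replicate block, 35 of 37 calls held under every alternative in MLN vs Ctrl, 37 of 38 in Both vs shARF, 11 of 19 in shARF vs Ctrl, 10 of 15 in Both vs MLN and 17 of 20 in the interaction. Median-of-ratios scaling moved the median log2 difference of the 39 genes to 1.48 in Both vs shARF, 0.24 in Both vs MLN and 0.28 in the interaction, and gave 2 genes higher beyond 1 in Both vs MLN. A minimum of 1 TPM gave 1 gene higher beyond 1 in shARF vs Ctrl and 1 negative beyond 1 in the interaction, 1 fit to 12 libraries gave 2 higher beyond 1 in shARF vs Ctrl, and no filter gave 2 lower in Both vs MLN. Leaving out single libraries gave medians of 1.28 to 1.51 in MLN vs Ctrl, 0.063 to 0.19 in Both vs MLN and 0.086 to 0.21 in the interaction. It gave 6 to 10 higher genes and 0 to 1 beyond 1 in shARF vs Ctrl, 2 to 5 lower and 1 to 2 higher beyond 1 in Both vs MLN, and 0 to 1 negative beyond 1 in the interaction. The labels give no replicate numbers. Some column numbers are shared between conditions. Deviations of 10 same-numbered pairs correlated at -0.15 to 0.06 and those of 44 other pairs at -0.11 to 0.13. Libraries with the same number thus showed no common deviation over all genes. That cannot show whether they were handled together, so the pairing is unknown. The replicate block on shared numbers was fitted to the same libraries. A library whose number occurred in only 1 of the compared conditions then added nothing to the difference. With the block, 28 genes were higher and 3 lower in MLN vs Ctrl, and 9 were positive and 1 negative in the interaction. In shARF vs Ctrl limma called 0 higher and 0 lower, 0 of them beyond 1. There 7 and 10 had an unadjusted p below 0.05, and by that p SQSTM1 was lower beyond 1. The block could not be fitted to Both vs shARF or Both vs MLN, which share 1 number each. The cause of these shifts was not tested. TPM values give no depth, so the precision of low genes such as GPX2 and AKR1C2 in untreated cells is unknown.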
